A study of Homo sapiens with 10 samples.

Results

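Acetylation of lysine 27 on histone H3 (H3K27ac) was compared between immortalized human astrocytes grown with no doxycycline and sister cells given it for 2 days. The comparison rests on 2 of the 10 samples of the series, 1 library on each side, and takes in 50960 islands without doxycycline and 58368 islands at 2 days on chromosomes 1 to 22. An island is a stretch that the submitters' peak caller found richer in antibody reads than a control library. Islands of the lists that shared at least 1 bp were joined, which gave 56380 regions.

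The line is of fetal origin, immortalized with SV40, grown in medium with serum and EGF, and carries an inducible IDH1-R132H. Doxycycline was given at 1 µg/ml for 2 days, and the comparison cells received none. CUT&RUN was used, in which an antibody guides a nuclease to its target in permeabilized cells and the fragments it frees are sequenced. The control library was made with an HRP-linked secondary antibody in cells without doxycycline, and it served both lists. Libraries of H3K9ac and H4K16ac from the same 2 conditions, and H3K27ac after 7 days, are given beside the results where they bear on them. Cells lacking the transgene but given doxycycline are not among the samples, so IDH1-R132H, doxycycline and time in culture cannot be told apart. There was no replicate on either side. No test between conditions was therefore possible, and each interval below covers counting error only.

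H3K27ac is written by the acetyltransferases p300 and CBP and removed by histone deacetylases, and it marks active promoters and enhancers. IDH1-R132H is the mutant enzyme of gliomas that converts isocitrate's product into 2-hydroxyglutarate, a metabolite that inhibits dioxygenases which demethylate histones and DNA. The mutation is best known in gliomas for its link to DNA hypermethylation, in which CpG-rich promoters take part.

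The lists were read at a sample of genes whose hg19 positions were at hand, 406 genes on chromosomes 1 to 22. A set of 6 promoters among them show the range of sequence found where H3K27ac reads could be compared most evenly. They are the 3 lowest and the 3 highest regions by ratio of reads among the gene starts in depth-matched regions (defined below) that had a promoter sequence. They were chosen after their values were seen. Each run gives the 250 bases before a gene's outermost start, 5′ to 3′ on the gene's strand, from RefSeq on GRCh38.p14, and capitals mark each CpG. The lower regions come first.
SLC26A4-AS1: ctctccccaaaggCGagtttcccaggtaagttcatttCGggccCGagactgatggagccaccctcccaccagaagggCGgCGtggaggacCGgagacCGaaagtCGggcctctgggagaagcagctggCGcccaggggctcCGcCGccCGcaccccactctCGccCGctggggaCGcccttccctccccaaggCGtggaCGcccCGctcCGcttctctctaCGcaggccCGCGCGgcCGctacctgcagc
UBE3A: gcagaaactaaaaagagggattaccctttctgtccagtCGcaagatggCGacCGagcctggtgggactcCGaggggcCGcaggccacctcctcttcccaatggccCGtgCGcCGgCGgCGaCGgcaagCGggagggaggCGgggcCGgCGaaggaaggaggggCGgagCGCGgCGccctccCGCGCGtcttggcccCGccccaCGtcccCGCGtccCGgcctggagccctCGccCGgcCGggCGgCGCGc
OAT: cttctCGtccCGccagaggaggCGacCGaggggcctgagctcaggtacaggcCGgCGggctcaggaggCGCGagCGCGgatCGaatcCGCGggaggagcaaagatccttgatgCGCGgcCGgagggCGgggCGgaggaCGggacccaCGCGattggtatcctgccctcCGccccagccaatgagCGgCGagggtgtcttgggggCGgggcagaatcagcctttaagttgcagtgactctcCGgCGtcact
The regions that were higher at 2 days follow.
GNAI1: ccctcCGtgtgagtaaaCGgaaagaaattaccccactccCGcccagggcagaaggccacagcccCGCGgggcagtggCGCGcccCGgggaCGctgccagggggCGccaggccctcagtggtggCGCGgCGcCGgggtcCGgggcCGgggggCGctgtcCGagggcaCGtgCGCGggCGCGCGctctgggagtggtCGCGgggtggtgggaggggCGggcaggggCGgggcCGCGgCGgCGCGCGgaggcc
LTA4H: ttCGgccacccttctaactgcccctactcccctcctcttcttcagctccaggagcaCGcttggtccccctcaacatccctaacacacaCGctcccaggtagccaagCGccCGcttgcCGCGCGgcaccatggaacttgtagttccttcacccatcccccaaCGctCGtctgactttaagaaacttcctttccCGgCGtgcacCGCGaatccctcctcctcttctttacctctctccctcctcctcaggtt
SESN3: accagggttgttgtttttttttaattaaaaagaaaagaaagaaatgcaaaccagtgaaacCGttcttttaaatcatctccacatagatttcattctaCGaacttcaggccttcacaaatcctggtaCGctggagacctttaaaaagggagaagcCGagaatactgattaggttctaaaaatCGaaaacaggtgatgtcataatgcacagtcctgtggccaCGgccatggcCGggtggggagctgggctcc
The promoter of SLC26A4-AS1, an RNA antisense to SLC26A4, lies at chr7:107661799-107662048 on the minus strand and holds 24 CpGs in 70.4% G and C. That of UBE3A, a ubiquitin ligase, lies at chr15:25439057-25439306 on the minus strand and holds 33 CpGs in 74.4%. That of OAT, the mitochondrial ornithine aminotransferase, lies at chr10:124418924-124419173 on the minus strand and holds 27 CpGs in 68.4%. All 3 exceed the median of 11 CpGs and 58.0% G and C over the 35116 promoters in the table. Of these promoters 93.9% hold the letters CG, a pair that reads the same on both strands. The depth-matched gene regions from which the 3 were drawn are themselves rich in G and C. Over the longer promoter sequence set beside the ratios below, their median was 66%, against 58.7% for all promoters. Over that sequence OAT had 67.3%, SLC26A4-AS1 70.7% and UBE3A 75.7%, so OAT lay close to the median of its own set. On the higher side, SESN3, a stress-induced sestrin, has the poorest promoter of the 6, at chr11:95232476-95232725 on the minus strand with 7 CpGs in 42.8%. LTA4H, which makes leukotriene B4, is near the middle at chr12:96035588-96035837 on the minus strand with 14 CpGs in 58.8%. GNAI1, an inhibitory G protein subunit, goes against a simple order: its outermost promoter, at chr7:80134581-80134830 on the plus strand, is the richest of the 6, with 34 CpGs in 79.6%.

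The 2-day library was the smaller one, with 0.791 times the relative size of the untreated one. Its size relative to the HRP library was 3.15, against 3.98 without doxycycline. The islands held 9357514 and 12715596 reads and covered 253 and 301 Mb. All ratios below are reads at 2 days over reads without doxycycline after division by these relative sizes, on the log2 scale. When the reads within islands were taken as the size instead, every ratio rose by 0.10, close to the size of the median difference between the libraries given below. The overall level of H3K27ac can therefore not be read from these lists, and differences between loci, which this shift leaves as they are, carry the description.

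Of the 56380 regions, 42492 had an island in both lists, 6124 only without doxycycline and 7764 only at 2 days. Among the 38103 shared regions with at least 50 reads in either library, counting the larger library at the size of the smaller, the median log2 ratio was -0.121 (95% order-statistic interval -0.125 to -0.118). Its quartiles were -0.35 and 0.075. A ratio of at most 0.5 was found in 1408 regions, 3.70% of those compared, and a ratio of at least 2 in 196, or 0.514%. With reads in islands as the size, the same counts were 974 and 308.

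These 2-fold differences went with how much sequence had been called in each library. The called length of a region at 2 days was 0.844 times that without doxycycline at the median. Where it had shrunk to no more than 0.5 times, in 4610 regions, the median ratio of reads was -0.72 and 1253 regions were at least 2-fold lower. In those same regions reads per kb of called island were higher, with a median log2 ratio of 0.65. Where the called length had at least doubled, in 519 regions, the median was 0.75 in reads and -0.61 per kb, and 135 regions were at least 2-fold higher. Where the longer call was at most 25% longer than the other, in 17808 regions, only 20 regions passed 2-fold, 14 of them lower and 6 higher. Called length is itself set by the reads, so choosing regions of like length also leaves out regions whose reads differed most, and the small number past 2-fold in such a set is partly fixed by the choice. Of the 1408 lower regions, 1088 were higher per kb, and of the 196 higher regions, 113 were lower per kb.

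**Figure D1:**
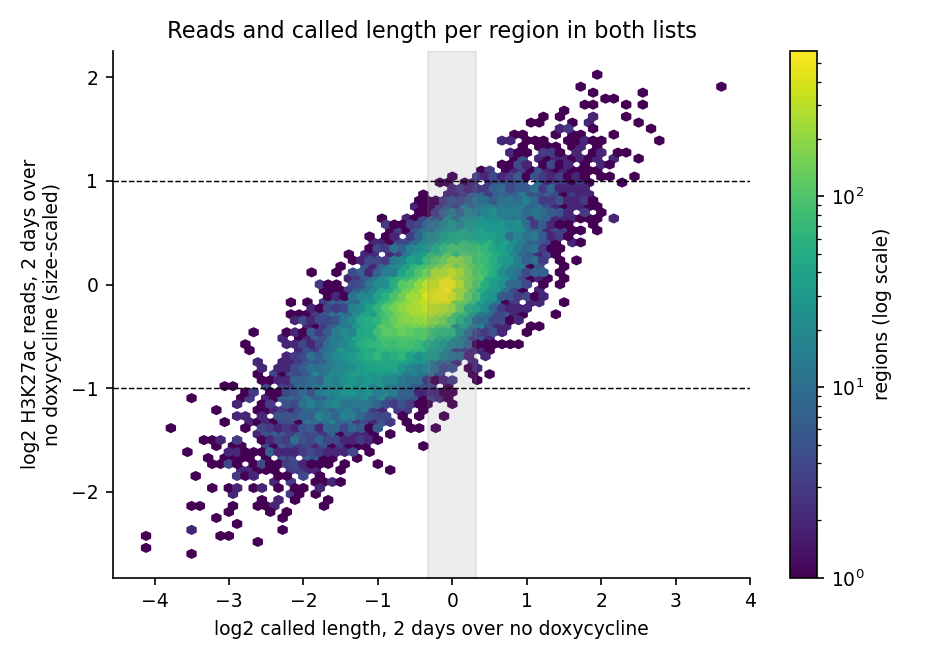
Each hexagon counts shared regions by the log2 ratio of called length (x axis) and the log2 ratio of size-scaled H3K27ac reads (y axis), both 2 days over no doxycycline, with colour on a log scale. Dashed lines mark a 2-fold difference, the grey band marks lengths at most 25% apart, and 20 of the regions beyond the dashed lines lie inside it.

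The shorter calls came from both edges and from splitting. In 30827 regions made of 1 island in each list, 67.6% were shorter at 2 days, 26.6% longer and 5.79% equal, and the median edge lay 200 bp further in on the left and on the right. In 5127 regions 1 island without doxycycline was listed as 2 or more at 2 days, and in 999 the reverse held. The median ratio of reads was -0.13 in the first kind and -0.031 in the second.

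Of the 5 regions with the most reads, which are wide domains, 3 had ratios within 0.10 of 0 and 2 were lower. At 2p22.2 (chromosome 2, 36576601 to 36732800) there were 14903 reads without doxycycline and 11895 at 2 days, a log2 ratio of 0.014 (exact 95% interval -0.021 to 0.048). The domain at 5p15.2 (chromosome 5, 14138201 to 14289200) went from 11067 to 8275 reads, a ratio of -0.081 (-0.12 to -0.039). Both ratios are smaller than the 0.10 that separates the scalings. Lower were 10q22.3 (chromosome 10, 80824401 to 80958200), with 10677 and 7342 reads and a ratio of -0.20 (-0.24 to -0.16), and 9p13.2 (chromosome 9, 37919201 to 38072400), with 10482 and 7305 reads and -0.18 (-0.23 to -0.14). At 15q22.33 (chromosome 15, 67353201 to 67447400) the counts were 8822 and 6781 and the ratio -0.041 (-0.087 to 0.0050). These domains were listed as 1, 1, 2, 2 and 1 islands without doxycycline and as 2, 4, 3, 10 and 2 at 2 days, in that order. Those with 2 pieces at 2 days had the highest ratios, and among the rest the ratios did not follow the number of pieces.

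A depth-matched set was formed to hold called length nearly still. It took regions of exactly 1 island from each list, with the longer at most 25% longer than the other and at least 50 reads in each library at the size of the smaller. This left 12621 regions with 31.7% of the island reads without doxycycline and 33.2% of those at 2 days. Their median log2 ratio was -0.029 (-0.034 to -0.024), the SD between regions was 0.24 and the range ran from -1.08 to 0.95. Counting alone gives an SD of 0.16. The order of regions by reads was nearly shared (Spearman's rho 0.97 across regions, which are not independent replicates), and 90 of the 100 regions with most reads were common to the libraries. At least 2-fold lower were 2 regions (0.0158%), and 0 were at least 2-fold higher, in a set whose selection on length limits such differences. A 1.5-fold difference was reached by 158 lower and 129 higher regions.

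The spread narrowed as reads increased. In the 3156 depth-matched regions with fewest reads, with medians of 92 and 72 reads, the SD was 0.29 against 0.23 from counting. In the 3155 with most reads, with medians of 586 and 450, it was 0.15 against 0.089, and 0 regions reached a 1.5-fold difference. The exact 95% interval lay below 0 in 1553 regions (12.3%) and above 0 in 892 (7.07%). With reads in islands as the size, 602 lay below and 2116 above, so the direction of the excess turns with the scaling.

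**Figure D2:**
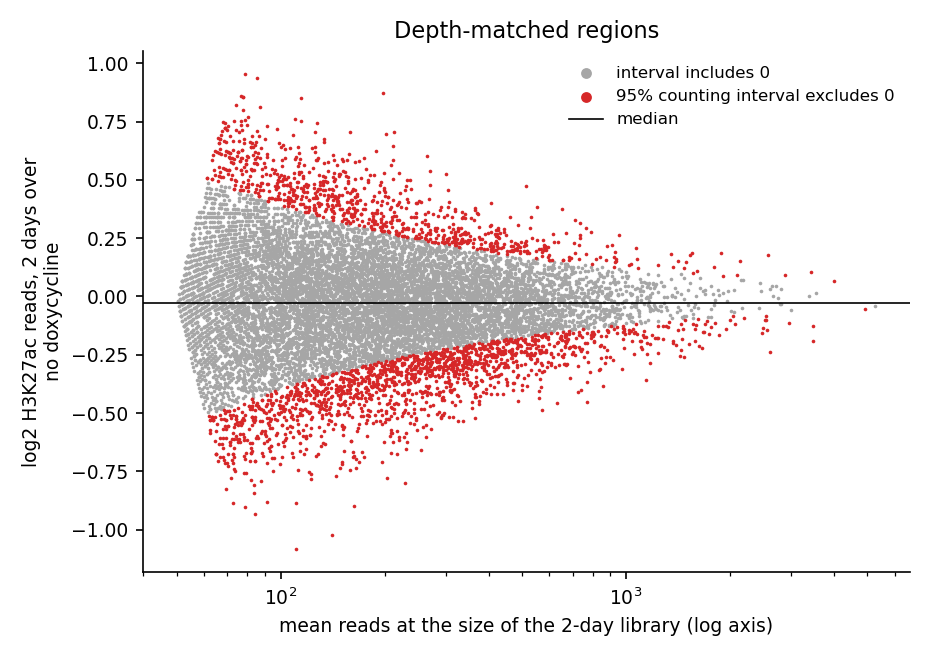
Each point is 1 of the 12621 depth-matched regions, with mean reads at the size of the 2-day library on a log axis (x) and the log2 ratio of H3K27ac reads, 2 days over no doxycycline (y). Red points have an exact 95% counting interval that excludes 0, the line is the median of -0.029, and the scatter narrows to the right.

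The largest single differences were at loci with modest counts. At 11p15.5 (chromosome 11, 567201 to 570000) there were 190 reads without doxycycline and 71 at 2 days over the same 2600 bp, a log2 ratio of -1.08 (-1.496 to -0.68). At 1p31.3 (chromosome 1, 65612601 to 65616600) 239 reads stood against 93, a ratio of -1.02 (-1.38 to -0.67). These are the pair of depth-matched regions past 2-fold. The H3K9ac libraries did not share that direction there, with 63 and 103 reads at the first locus and 107 and 192 at the second, log2 ratios of 0.26 and 0.39. At 7 days, in a comparison that shares the library without doxycycline, H3K27ac at these loci had ratios of 0.37 and 0.47. The 7-day sums come from a library of relative size 1.49, and their called lengths were not matched. The other 6 of the 8 lowest lay at 9q32 (140 and 58 reads), 1p31.3 (130 and 55, starting at 68679401), 19q13.2 (269 and 114), 4p16.1 (182 and 78), 19p13.2 (119 and 51) and 2q23.3 (149 and 64), with ratios from -0.93 to -0.88. Of the 8 lowest, 7 had an H3K9ac island in both conditions, and 3 of these were lower in H3K9ac too.

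On the other side, 10q26.11 (chromosome 10, 120456801 to 120460800) had 68 reads without doxycycline and 104 at 2 days, a ratio of 0.95 (0.50 to 1.41). At 15q21.2 (chromosome 15, 52622801 to 52628200) the counts were 74 and 112, a ratio of 0.94 (0.50 to 1.38). The best covered of the 8 highest was 12p13.33 (chromosome 12, 1151601 to 1156000), where 177 reads stood against 256, a ratio of 0.87 (0.59 to 1.16). The remaining loci lay at 11q25, 12p13.31, 10q26.12, 1p36.11 and 2p22.1, with ratios from 0.82 to 0.86. At 10q26.12 (chromosome 10, 121697401 to 121703200), with 70 and 100 H3K27ac reads, the H3K9ac islands that touched the region held 57 reads without doxycycline and 813 at 2 days, a log2 ratio of 3.38. Such H3K9ac sums take in whole islands, also any part outside the region, and their called lengths were not matched. At 1p36.11 (chromosome 1, 24606201 to 24613800), with 103 and 147 H3K27ac reads, H3K9ac had 45 and 159 reads, a ratio of 1.37. Of the 8 highest, 5 had an H3K9ac island in both conditions, and 4 of these were higher in H3K9ac. In the wider sets H3K9ac did not share this. In the 129 depth-matched regions at least 1.5-fold higher, the H3K9ac median was -0.18 (-0.47 to 0.053, 80 regions with H3K9ac in both). In the 158 at least 1.5-fold lower it was -0.085 (-0.24 to 0.043, 116 regions), against -0.13 over all depth-matched regions. H4K16ac differed from H3K9ac here. Its median was 0.74 (0.28 to 0.96, 44 regions) in the higher set and -0.032 (-0.54 to 0.28, 43 regions) in the lower, against 0.074 over all depth-matched regions. Called lengths of H4K16ac were likewise not matched.

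Regions present in 1 list only were thin. The 6124 without an island at 2 days held 2.89% of the reads of their list, with a median of 55 reads, and the 7764 without an island in the untreated cells held 3.10%, with a median of 34. A missing island does not mean that reads were absent, because the lists do not count reads outside islands. Of 25052 regions that predicted at least 100 reads at 2 days, 96 had no island there, or 0.383% (exact interval 0.311 to 0.468). The share in the other direction was nearly equal, 103 of 26948, or 0.382% (0.312 to 0.463).

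The best covered of those missing at 2 days was at 17p11.2 (chromosome 17, 18167601 to 18178400), with 296 reads spread over 10800 bp. It was followed by 7p22.1 (chromosome 7, 5784601 to 5800200, 279 reads), 11q13.4 (chromosome 11, 71942601 to 71953400, 250 reads), a second locus at 17p11.2 (chromosome 17, 19170801 to 19183200, 250 reads) and another at 11q13.4 (chromosome 11, 75175601 to 75189200, 219 reads). Their density, 4.05 to 6.89 reads per kb per unit of relative size, was below the 17.3 to 24.2 of the 5 domains above without doxycycline. All 5 were touched by an H3K27ac island at 7 days and by H3K9ac islands in both conditions. The HRP library held 47, 20, 35, 42 and 21 reads in these 5 islands in that order, before scaling by 3.98. Those missing without doxycycline were led by 17p13.2 (chromosome 17, 5230801 to 5237000), with 160 reads at 2 days. There H3K9ac likewise had no island without doxycycline and 343 reads at 2 days. The next were 4q21.1 (chromosome 4, 77465401 to 77471000, 147 reads), 17p12 (chromosome 17, 15988001 to 15995200, 135 reads), 3q26.31 (chromosome 3, 172517201 to 172523800, 132 reads) and 3q22.1 (chromosome 3, 130715801 to 130723400, 128 reads). At the last 3 of these loci, H3K9ac islands were present in both conditions. The HRP reads in the 5 islands missing without doxycycline were 33, 35, 34, 24 and 31, before scaling by 3.15. Over all islands, the median fold over scaled HRP reads was 4.52 without doxycycline and 5.08 at 2 days. Scaled control reads make up a large part of several of the counts in both groups, so these loci are weak evidence of gain or loss.

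The depth-matched ratios were not spread evenly along the genome. Chromosome 19 had the lowest median, -0.12 (-0.15 to -0.10, 416 regions), followed by chromosomes 22 at -0.097 (-0.14 to -0.051), 16 at -0.086 (-0.12 to -0.056) and 20 at -0.081 (-0.12 to -0.053). Chromosomes 4 at 0.0096 (-0.015 to 0.029) and 5 at 0.0031 (-0.015 to 0.018) were highest. The intervals of 22, 16 and 20 overlap that of 19 and one another, so the order among these 4 is not resolved, whereas none of the 4 reaches that of chromosome 4. On chromosome 19, 72.8% of depth-matched regions were below 0, against 55.2% of all. It held 3.30% of the depth-matched regions but 15 of the 158 that were at least 1.5-fold lower, or 9.49%, and 2 of the 129 that were at least 1.5-fold higher, or 1.55%.

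Called length, control reads and depth on chromosome 19 were near those of the whole set. The median length ratio was 0.972 there and 0.963 in all depth-matched regions, and the median of HRP reads per kb was 1.92 and 2.11. The median of reads without doxycycline was 204.5 and 211. After subtraction of scaled HRP reads the chromosome 19 median was -0.15, and per kb it was -0.082 against 0.017 in the whole set. H3K9ac, in its own depth-matched regions, had a chromosome 19 median of 0.029 (-0.030 to 0.062, 302 regions), and H4K16ac of -0.31 (-0.39 to -0.10) in 37 regions. H3K27ac at 7 days, over the same library without doxycycline, had a chromosome 19 median of 0.28 (0.23 to 0.33, 219 regions). All 3918 of its depth-matched regions had a median of 0.086. Chromosome 19 thus lay above its set at 7 days and below its set at 2 days. The 7-day library had a relative size of 1.49, and its depth-matched set is another and smaller one.

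The same contrast appeared by Giemsa stain, the light and dark banding of chromosomes in which light bands are richer in genes. Light bands had a median of -0.044 (-0.050 to -0.038, 6901 regions) and the darkest class 0.0088 (-0.0045 to 0.026, 1206 regions). The classes between ran -0.058, -0.016 and 0.017 from lighter to darker. In H3K9ac the order went the other way, from -0.038 (-0.0454 to -0.0281) in light bands to -0.071 (-0.0945 to -0.0445) in the darkest. These H3K9ac intervals overlap slightly, so that order is not resolved. H4K16ac had -0.10 and -0.089 in these classes. H3K27ac at 7 days, over the same library without doxycycline, had 0.11 in light bands and -0.048 in the darkest. Of 265 bands with at least 20 depth-matched regions, 174 had a median below 0. The lowest were 9q34.3 at -0.25 (-0.31 to -0.081, 22 regions), 16p13.3 at -0.19 (-0.27 to -0.062, 53 regions), 4p16.3 at -0.18, 17q25.3 at -0.18 and 19q13.12 at -0.17, and the best filled among the lowest 10 was 19p13.3 at -0.17 (-0.24 to -0.12, 65 regions). The highest were 6q24.1 at 0.12 (-0.12 to 0.20, 23 regions), 6q23.3 at 0.12 and 1p22.3 at 0.11. The interval lay below 0 in 41 bands and above 0 in 2. With reads in islands as the size, the counts were 1 and 78, so only the differences between bands are independent of the scaling.

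**Figure D3:**
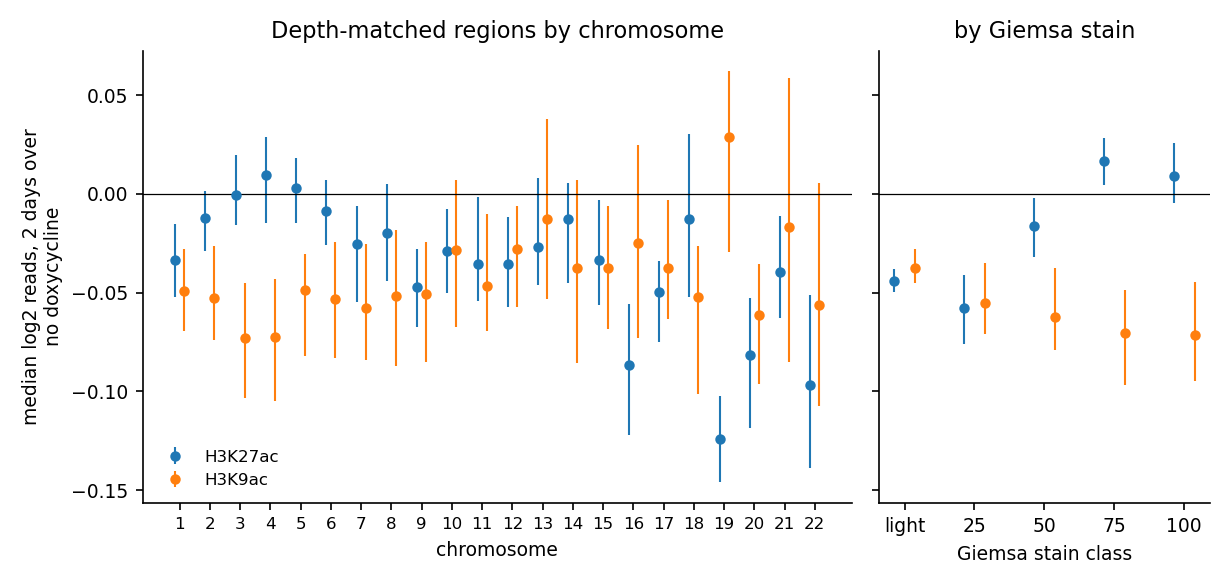
Points are medians of the log2 ratio, 2 days over no doxycycline, over depth-matched regions of H3K27ac (blue) and H3K9ac (orange) by chromosome (left) and by Giemsa stain class from light to darkest (right), with order-statistic 95% intervals as bars. For H3K27ac chromosome 19 is lowest at -0.12, and the 2 darker classes sit above the lighter ones.

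At the starts of the 406 sampled genes, an island within 1000 bp was found in both lists for 252, only without doxycycline for 6, only at 2 days for 5, and in neither for 143. The genes in 1 list had few reads: ALDH1A3, a retinaldehyde dehydrogenase, had the most without doxycycline, 105, and RBPMS2, an RNA-binding protein, the most at 2 days, 75. MLC1, a membrane protein of astrocytes, had an island with 36 reads at 2 days and none without doxycycline. As a check of the cell type, the astrocyte-linked genes NFIA, a glial transcription factor, and APOE, a lipid carrier, had islands in both lists. MLC1, which was not among the genes set for this check, did not. NFIA had 352 and 252 reads and APOE 194 and 155. The neuronal genes MAP2, GRIA4 and SYT7 had none in either list. Of 3 lymphocyte genes, IKZF3 and IL21 had none and KLRG1 had 403 and 342 reads, and of 10 genes of other tissues 8 had none. The other two were HABP2, a plasma protease with 30 reads at 2 days only, and SFTPC, a lung surfactant protein whose start lay in a region of 2094 and 1368 reads, more than NFIA or APOE had.

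The 252 genes fell in 239 distinct regions, 232 of them with at least 50 reads. Their median log2 ratio was -0.15 (-0.19 to -0.11), and per kb it was 0.062 (0.020 to 0.14). At least 2-fold lower were 2 regions, or 0.862% against 3.70% of all regions in both lists, and 0 were at least 2-fold higher. The lower ones were those of ZP3, an egg coat protein, with 265 and 74 reads and a called length that went from 9000 to 2400 bp, and of the small nucleolar RNA SNORD128, with 146 and 45 reads and 7800 and 2600 bp. Both were higher per kb, at 0.41 and 0.23. Of the distinct gene regions, 67 were depth-matched, with a median of -0.10 (-0.21 to -0.063), about the size of the shift of 0.10 between the scalings. The interval was below 0 in 25 of these 67 regions, or 37.3% against 12.3% of all depth-matched regions, and above 0 in 4, or 5.97% against 7.07%. They had a median of 443 reads without doxycycline, and among the 3155 depth-matched regions with most reads, with a median of 586, the interval was below 0 in 18.95%. The lowest was that of DFFB, the nuclease that cuts DNA in apoptosis, where 178 reads stood against 84, a ratio of -0.74 (-1.14 to -0.36). Many of the 406 sampled genes lie at 1p36, the end of chromosome 1, so they are not an even sample of gene starts. Depth-matched intervals below 0 there included those of PUSL1, INTS11, PLEKHG5, DFFB, MXRA8, LINC00337, LOC102724450 and MIR34AHG. Those of MORN1, MIB2, LINC01672 and PIK3CD-AS2 included 0. The 37.3% can therefore not be taken as a share for gene starts in general.

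Promoter sequence was then set beside these ratios. Of the 67 depth-matched gene regions, 56 (83.6%) had a promoter sequence of 300 bases, averaged where a gene has several starts, 8 of the 406 genes being matched through an older symbol. Across these 56 the ratio was lower where G and C were more frequent, with Spearman's rho of -0.38 for G and C content and -0.37 for CpG number, given as a description over loci of the same libraries. In the 32 regions with at least 65% G and C the median was -0.16 (-0.28 to -0.065) and 25 were below 0. In the other 24 it was -0.038 (-0.19 to 0.075) and 13 were below 0. The intervals overlap. Over all 194 gene regions with a promoter sequence, without matching of length, rho was -0.16. For H3K9ac in the depth-matched H3K27ac regions rho was 0.0067 over 53 regions, and for H4K16ac -0.21 over 34. The regions of the printed promoters had these reads: SLC26A4-AS1 100 and 55, UBE3A 432 and 239, OAT 356 and 205, GNAI1 375 and 352, LTA4H 341 and 320, and SESN3 345 and 311. Their log2 ratios were -0.52, -0.52, -0.46, 0.25, 0.25 and 0.19 in that order, and the interval of SESN3 included 0 (-0.037 to 0.41).

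**Figure D4:**
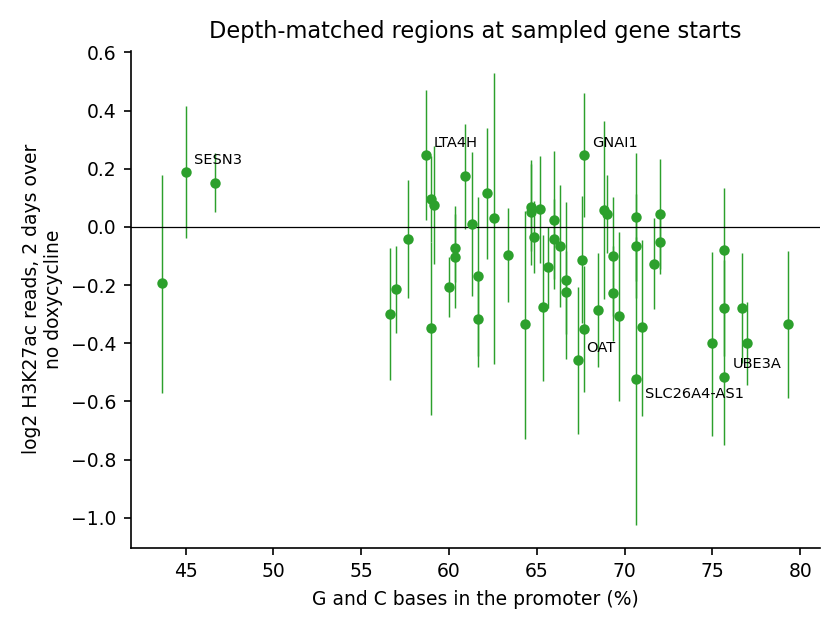
Each point is 1 of 56 depth-matched regions at a sampled gene start, with G and C content of its promoter in percent (x) and the log2 ratio of H3K27ac reads with its exact 95% counting interval (y). The 3 labelled low regions lie between 67.3% and 75.7%, and the 3 labelled high ones run from SESN3 at 45.0% to GNAI1 at 67.7%, so the ranges overlap.

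The 7 lists of genes were described by their counts. Over all 38103 shared regions, of unmatched length like those of the lists, the interval was below 0 in 29.0% and above 0 in 7.95%, or in 11032 and 3031 regions. With reads in islands as the size these were 7124 and 5723. The lists hold 3 to 14 distinct regions each, too few to set one apart from that background. Among genes of adhesion, caveolae and matrix, 12 of 15 had a start region in both lists, in 11 regions with a median of -0.16, 5 of them with an interval below 0, against 29.0% of all shared regions, and 0 above. CAV1 and CAV2, which encode caveolins of the membrane pits called caveolae, share 1 region (chromosome 7, 116137201 to 116174400) with 2096 and 1662 reads and a ratio of 0.0040. MXRA8, a matrix-associated adhesion protein, had 812 and 515 reads, a ratio of -0.32 (-0.48 to -0.16) that per kb became -0.0062. BCAR1, a docking protein of focal adhesions, was lowest with 316 and 154 reads, -0.70 (-0.99 to -0.42), and a called length of 7600 and 4800 bp, and per kb its ratio was -0.035. SGCE, a sarcoglycan, was highest with 265 and 226 reads, 0.11 (-0.15 to 0.37). KANK1 had 35 reads without doxycycline and no island at 2 days.

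Of 19 neural and glial genes, 9 had a region in both lists, 9 had none and ANK2 had an island of 66 reads only without doxycycline. The median was -0.10, with 3 of 9 intervals below 0, against 29.0% of all shared regions, and 1 above. ATP1B1, a sodium pump subunit, had 1651 and 1258 reads and a ratio of -0.053 (-0.16 to 0.053). APP, the amyloid precursor, had 655 and 439, a ratio of -0.24 (-0.42 to -0.062). MAGI2, a synaptic scaffold, had 472 and 348, a ratio of -0.10 (-0.30 to 0.10). KCNT2, a sodium-activated potassium channel, was lowest with 129 and 57 reads, -0.84 (-1.32 to -0.38), though 0.33 per kb. GNAI1 was the one with an interval above 0, at 0.25 (0.033 to 0.46), which was 0.28 per kb.

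Of 9 growth factors, cytokines and receptors, 3 had a region in both lists and 6, among them HGF, IL21 and NGFR, had none. RELT, a receptor of the TNF family, had 1068 and 640 reads and a ratio of -0.40 (-0.54 to -0.26), the 1 interval below 0 of the 3. It stayed below 0 per kb, at -0.12. SEMA3C, a secreted guidance factor, had 2092 and 1582 reads and -0.064 (-0.16 to 0.031), and IL6ST, the shared receptor gp130 of IL-6 cytokines, had 1072 and 816 and -0.055 (-0.19 to 0.078).

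Of 12 genes of stress, inflammation and cell death, 10 had a region in both lists, with a median of -0.23, the lowest of the 7 lists, and 5 of 10 intervals below 0, against 29.0% of all shared regions, and 0 above. NFKB2, which encodes an NF-κB subunit, had 997 and 716 reads and -0.14 (-0.28 to 0.0011). CUL3 and KEAP1, partners in the ligase that turns over NRF2, were both lower. CUL3 had 541 and 344 reads, a ratio of -0.31 (-0.51 to -0.12), and KEAP1 had 277 and 147, a ratio of -0.58 (-0.87 to -0.28). Their called lengths went from 14800 to 10800 bp and from 5200 to 2400 bp, and per kb they were higher, at 0.14 and 0.54. GAS5, a host of small nucleolar RNAs, had 902 and 723 reads and 0.020 (-0.12 to 0.16). SESN3 was highest with 345 and 311 reads, 0.19 (-0.037 to 0.41). CASP1 had no island, and CASP4 had 29 reads at 2 days only.

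Of 14 genes of chromatin and transcription, 13 had a region in both lists, with a median of -0.19, 5 of 13 intervals below 0, against 29.0% of all shared regions, and 2 above. CTBP2, a corepressor, had 2162 and 1424 reads and -0.26 (-0.36 to -0.17). TADA2A, a subunit of acetyltransferase complexes, was lowest with 575 and 288 reads, -0.66 (-0.87 to -0.45), over a called length of 18800 and 9200 bp, and per kb it was 0.37. HIST1H4B, a histone H4 gene, had 1699 and 1493 reads and 0.15 (0.051 to 0.25), and its promoter had 46.7% G and C. BCLAF1, a transcription factor, had 745 and 551 and -0.096 (-0.26 to 0.064). HINFP, an activator of histone H4 genes, was highest with 296 and 324 reads, 0.47 (0.24 to 0.70), but its called length went from 3800 to 8000 bp and per kb it was -0.60.

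All 7 tumour suppressors and DNA repair genes had a region in both lists, with a median of -0.18, 1 of 7 intervals below 0, against 29.0% of all shared regions, and 0 above. NF2, the gene of merlin, had 547 and 355 reads and -0.28 (-0.48 to -0.090). XPA and ERCC5, both of nucleotide excision repair, had 562 and 460 and 460 and 360 reads, with ratios of 0.050 and -0.015. APC was highest with 357 and 306 reads, 0.12 (-0.11 to 0.34), and CHFR, a mitotic checkpoint ligase, lowest with 143 and 88, -0.36 (-0.76 to 0.031).

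Of 15 genes of household functions, 14 had a region in both lists, with a median of -0.077, 3 of 14 intervals below 0, against 29.0% of all shared regions, and 1 above. GAPDH, of glycolysis, had 3386 and 2546 reads and -0.073 (-0.15 to 0.0020). GBF1, of Golgi transport, had 1710 and 1313 and -0.042 (-0.15 to 0.062), and SARNP, of mRNA export, 1443 and 1124 and -0.022 (-0.14 to 0.092). RANGAP1, of nuclear transport, was highest with 1044 and 923 reads, 0.16 (0.032 to 0.29). POLR3K, a subunit of RNA polymerase III, was lowest with 343 and 159 reads, -0.77 (-1.05 to -0.49), with a called length of 9200 and 4000 bp and 0.43 per kb. The list medians lie on both sides of the -0.12 of all shared regions. Per kb each list median was above 0, from 0.028 to 0.30, and with reads in islands as the size those of the neural, growth factor and household lists turn above 0.

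**Figure D5:**
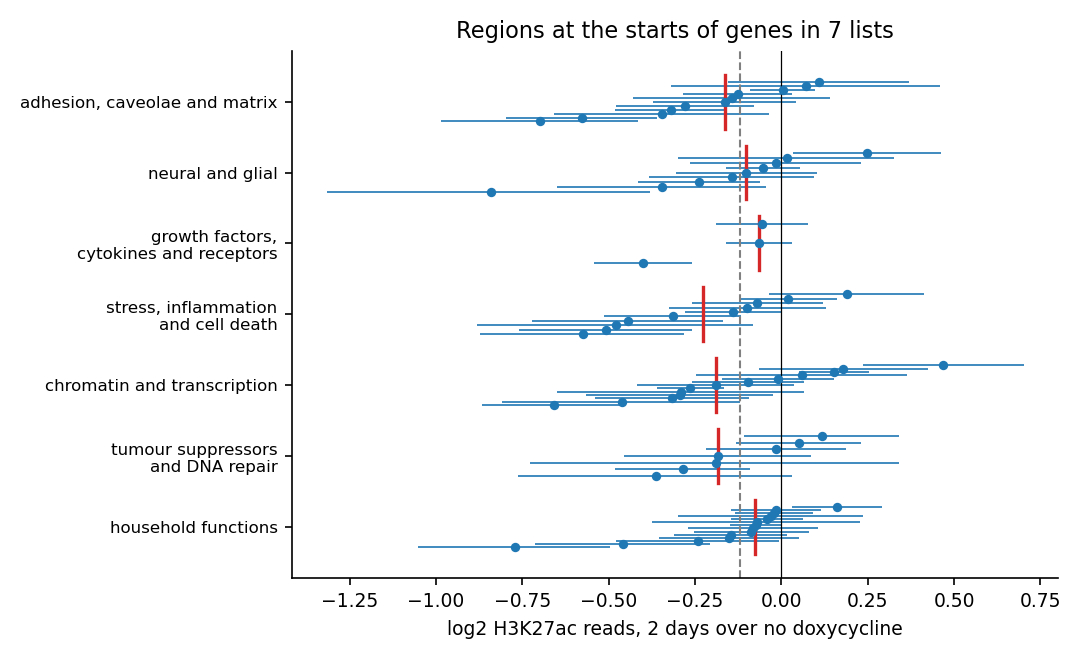
Points are H3K27ac regions at the starts of genes in 7 lists, with the log2 ratio of reads, 2 days over no doxycycline (x), and exact 95% counting intervals as bars. Red lines are list medians, the dashed line is the median of all shared regions at -0.12, and the lists overlap throughout.

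The other acetylation marks occupied most of the same places. H3K9ac islands touched 86.6% of the depth-matched H3K27ac regions without doxycycline and 88.2% at 2 days. H4K16ac, a mark of open chromatin, touched 63.4% and 57.5%. The H3K9ac libraries had relative sizes of 3.05 without doxycycline and 4.17 at 2 days, and the H4K16ac libraries of 2.53 and 3.08, so the 2-day library was the larger in both, unlike H3K27ac. Over the 10208 regions with H3K9ac in both conditions its median ratio was -0.13 (-0.14 to -0.12), and over 5666 with H4K16ac it was 0.074 (0.035 to 0.10). These sums take in islands of each mark whose called lengths were not matched. In depth-matched regions of their own, H3K9ac had a median of -0.047 (-0.054 to -0.038, 10690 regions) and H4K16ac of -0.098 (-0.11 to -0.087, 3245 regions), so the sign for H4K16ac turned with the matching. Region by region the ratios hardly followed H3K27ac, with Pearson's r of -0.054 for H3K9ac and 0.12 for H4K16ac, as descriptions across regions. In the 129 regions at least 1.5-fold higher in H3K27ac, however, the H4K16ac median was 0.74, as given above.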

How the data were processed

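CUT&RUN libraries were analysed from the island lists that the authors deposited, on hg19. The submitters' processing notes name Bowtie2 2.3.5.1, SICER, Picard, cutadapt, FastQC and deepTools, with no settings, and how duplicate reads were handled is not stated in the sources used. Each list comes from 1 library, per the labels. Per the file headers, the authors deposited counts of antibody and HRP reads per island, as whole numbers. The authors' deposited log2 fold is the log2 ratio of these counts less 1 constant per list, and 2 raised to that constant is the relative size used here. The deposited score is a multiple of that fold. The deposited p-value was recomputed as a Poisson tail within a relative difference of 9.10e-13.

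Positions are 1-based, on chromosomes 1 to 22. Genes came from hg19 samples shipped with pyranges 0.1.4 (368 genes) and GenomicFeatures 1.54.1 (38 genes), and bands from circlize 0.4.16. A gene took the region with most reads within 1000 bp of a start. Exact intervals are Clopper-Pearson intervals at 95%. Reads amplified by PCR without identifiers can share a molecule, so intervals cover counting error only. The code was tested on simulated data. Members and gene lists were chosen with earlier results of these data known. Named regions were the 8 highest and 8 lowest depth-matched ratios, the 5 with most reads in each list that lacked an island in the other, and the 5 with most reads without doxycycline. Named genes were, per list, the 3 with most reads and the highest and lowest ratio, and others named were chosen after their values were seen. Alternatives to the scaling, the lists, the read minimum, the length limit and the start window were tried.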

Additional observations from a re-analysis of the deposited data

How the results depend on the processing

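The median log2 ratio of shared regions, -0.12, was -0.013 with reads in islands as the library size, -0.049 when centred on the 1000 regions with most reads, -0.081 after HRP subtraction, -0.100 with at least 200 reads and 0.14 per kb. The depth-matched median, -0.029, was 0.071 and 0.043 with those scalings and 0.017 per kb. It was -0.042 with at least 200 reads, -0.018 with called lengths within 1.1 times and -0.048 within 1.5 times. Shared regions at least 2-fold lower numbered 45 with at least 200 reads and 138 per kb, against 1408. Those at least 2-fold higher numbered 308 with reads in islands, 449 after HRP subtraction, 1 with at least 200 reads and 922 per kb, against 196. Merging across gaps of at most 2000 bp, an FDR of at most 0.001, reducing the islands without doxycycline to the 2-day size and a minimum of 20 reads changed none of these by more than their interval or 1.5 times. Sampled genes with a start island in both lists numbered 245 to 269, and regions in 1 list only 13340 at an FDR of at most 0.001, an alternative chosen after seeing the data, against 13888. Of 54 named regions and genes, the sign differed in 11 with reads in islands, 19 per kb and 4 after HRP subtraction. The cause was not tested. No paired analysis was possible because each group is 1 library. Counts under about 100 reads leave ratios of 1.5-fold within counting error in many regions.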
